A study of Mus musculus with 4 samples.

Results

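In sections of infarcted mouse heart, the spots richest in the smooth muscle genes Myh11, Tagln and Cnn1 were compared with the spots poorest in them. A spot of the Visium array captures the RNA of the several cells above it. For each spot, the share of its unique molecular identifiers (UMIs, 1 for each captured RNA molecule) that came from these 3 genes was computed. Within each section the highest 2% of spots were taken as marker-rich and the lowest 50% as marker-poor. The spots were thus chosen by measured values of these 3 genes, which are left out of every test. This gave 149 marker-rich and 3712 marker-poor spots of 7424 kept, out of 9102 deposited. A spot was kept if hemoglobin genes held at most 1% of its UMIs and if it had at least 500 UMIs. The study used this hemoglobin limit to take out poor spots and spots lying in blood vessels. It took out 1599 spots here, and whether spots of vessel walls were among them was not tested.

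The mice were adult ICR animals of 12 weeks whose left anterior descending coronary artery had been tied off permanently. Hearts were taken at day 1, 4, 7 or 14 after the ligation, and 1 section of 10 µm from 1 mouse was measured per day. All 4 hearts were injured, so every value below describes infarcted hearts. Day, mouse and section cannot be told apart, so no test between days was made and the 4 sections served as the replicates. The deposited spots of a section held between 10983077 and 17315715 UMIs.

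Smooth muscle cells wrap arteries and veins and set their width by contraction. Their contractile apparatus consists of smooth muscle myosin, of which Myh11 is the heavy chain, of smooth muscle actin (Acta2, Actg2), and of actin-binding proteins such as calponin (Cnn1), transgelin (Tagln) and caldesmon (Cald1). Acta2 and Tagln are also made by myofibroblasts, the activated fibroblasts that build the scar after an infarct. Serum response factor acts on many contractile genes through a promoter element called the CArG box.

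Among the tested contractile genes, only Acta2 and Myl9 rose against the marker-poor spots at an adjusted p under 0.05 under every processing choice tried. Their upstream promoters are shown. Each is the 250 bases before the RefSeq transcription start on GRCm38.p6, read 5′ to 3′ on the gene's strand, with exact CArG boxes in capitals. Acta2 lies at chr19:34255374-34255623 on the minus strand and Myl9 at chr2:156775214-156775463 on the plus strand.
Acta2: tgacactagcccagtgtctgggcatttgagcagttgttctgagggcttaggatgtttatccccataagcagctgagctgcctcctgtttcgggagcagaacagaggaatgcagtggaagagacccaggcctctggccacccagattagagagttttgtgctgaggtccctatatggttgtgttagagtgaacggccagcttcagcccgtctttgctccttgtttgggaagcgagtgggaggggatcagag
Myl9: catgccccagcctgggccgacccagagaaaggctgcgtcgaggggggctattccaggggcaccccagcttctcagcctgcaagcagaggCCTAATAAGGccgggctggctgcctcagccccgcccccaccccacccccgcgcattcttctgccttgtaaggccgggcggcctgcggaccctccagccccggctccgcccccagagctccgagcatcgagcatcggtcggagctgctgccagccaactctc
The Myl9 window held 1 exact CArG box, 161 bases before the start, and the Acta2 window held no exact box. Near matches, such as ccctatatgg in the Acta2 window, were not counted. A window without an exact box is therefore not shown to lack the element. The element reads the same way on both strands. Of the 12 genes of the contractile list and the 3 ranking genes, 15 in all, 12 had a promoter in the RefSeq table. Myh11, Tagln and Actg2 had none, so Cnn1 was the only ranking gene examined. Of the 12 genes with a promoter 2 had an exact box in a promoter window (16.7%), against 1.62% of the 27025 genes in the table. They were Myl9 and Myl6, the latter in 1 of its 2 windows. The share was 1.94% of the 3818 tested genes with a promoter. It was 2.00% of the 601 that were higher in the marker-rich than in the marker-poor spots, close to the share of all tested. A match of letters describes the window and shows no binding.

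The ranking rested on few molecules. The median number of UMIs of the 3 genes in a marker-rich spot was 3.5 at day 1, 10 at day 4, 5 at day 7 and 2 at day 14, and 36 of the 149 spots were taken on a single UMI. At least 3 such UMIs with Myh11 among them were found in 65 of the 149. The share just inside and just outside the limit was 0.0573% and 0.0564% at day 1, 0.131% and 0.130% at day 4, 0.0986% and 0.0979% at day 7, and 0.0737% and 0.0733% at day 14. At the other end 80.4%, 53.9%, 72.2% and 84.6% of the kept spots of days 1, 4, 7 and 14 held no UMI of the 3 genes. All 3712 marker-poor spots were among these, taken in barcode order.

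**Figure D1:**
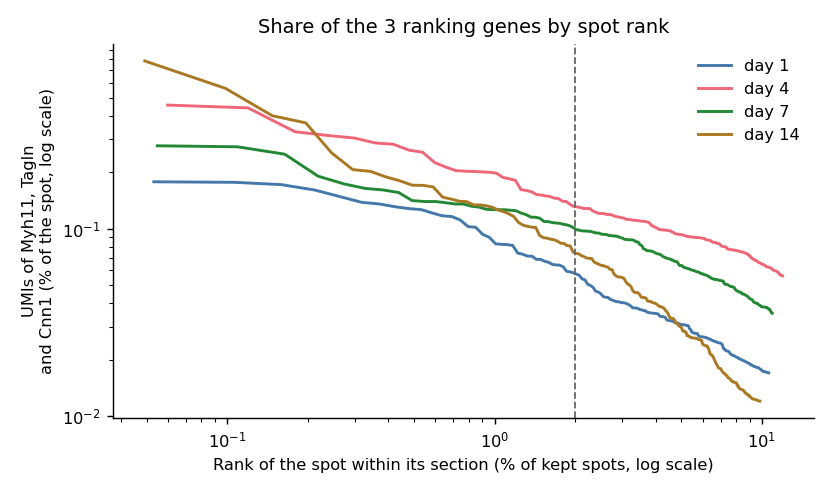
Share of UMIs from Myh11, Tagln and Cnn1 in each spot (%, log axis) against the rank of the spot within its section (% of kept spots, log axis), 1 line per section, for the highest-ranked spots. The dashed line marks the highest 2%, where the shares lie between 0.0573% and 0.131% and the lines show no step.

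Tagln carried most of the ranking, given here as a description with no test. It held 57.7%, 76.2%, 75.3% and 57.2% of the marker UMIs in the marker-rich spots of days 1, 4, 7 and 14, and Myh11 held 35.9%, 13.8%, 20.6% and 33.6%. Myh11 was seen in 24 of 38, 18 of 33, 16 of 37 and 17 of 41 marker-rich spots, so many spots that the rule took had no UMI of the myosin that defines smooth muscle. Tagln was the single marker seen in 12, 6, 20 and 21 of them.

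The marker-rich spots were shallow, and depth is part of the share that ranked them. Their median depth was 3428.5, 5725, 2931 and 1334 UMIs at days 1, 4, 7 and 14, against 6378, 9221, 5370 and 8527.5 UMIs in the marker-poor spots. Of the 149 spots 130 lay below the median depth of their section. The main comparison below called 769 genes higher and 715 lower. With the spots ranked after thinning to 500 UMIs it called 373 and 180, and with spots of at least 2000 UMIs 632 and 421. Spots of like depth, chosen low in scar genes, are compared further on. Depth as a cause of the results was not tested.

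Against the marker-poor spots, the marker-rich spots held more RNA of several contractile genes and of many extracellular matrix and activated fibroblast genes. They held less of cardiomyocyte genes and of most capillary genes tested. UMIs were summed per section and group and fitted with edgeR's quasi-likelihood test with the section as a block. Of 4765 genes with at least 1000 UMIs in the kept spots, 769 were higher (16.1%) and 715 lower (15%) at an adjusted p under 0.05. Without day 4 edgeR called 487 higher and 490 lower, without day 7 it called 324 and 200, and without day 14 it called 436 and 321. Scaled to total UMIs in place of TMM, the fit called 1483 higher (31.1%) and 360 lower (7.56%), and the median log2 ratio of all genes moved from 0.06 to 0.50. Fitted ratios below are after TMM and the CPM values printed beside them are not, so the ratio of the CPM values differs from the fitted one. All values are relative to the summed UMIs, and the marker-rich spots were shallower. A higher value therefore need not mean more molecules in a spot. More cells of a type and more RNA per cell cannot be told apart in a spot.

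Acta2, the smooth muscle actin, had the largest rise among genes called and moved the same way in every section. It stood at 784, 2455, 1098 and 1414 CPM (UMIs per 1000000 UMIs of the summed spots) in the marker-rich spots of days 1, 4, 7 and 14, and at 53.6, 77.0, 85.4 and 54.0 in the marker-poor spots. The groups did not overlap, and day 4 was the highest of the marker-rich sections. A lack of overlap, here and below, only describes the printed values. The share of all tested genes that show it is not given. The fitted log2 ratio was 3.87 ± 0.28 (SE derived from the test statistic, 4 sections, edgeR adjusted p = 3.22e-05).

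Myl9, the regulatory light chain of smooth muscle myosin, stood at 339, 744, 569 and 931 CPM against 23.6, 53.0, 68.2 and 31.4, again without overlap. Its log2 ratio was 3.44 ± 0.29 (edgeR adjusted p = 7.67e-05). Both genes passed in all 28 alternatives, with log2 ratios from 2.16 to 4.32 for Acta2 and from 1.82 to 3.90 for Myl9. Every alternative still ranked the spots by Myh11, Tagln or Cnn1, which are contractile genes like these. Passing throughout is therefore no independent support.

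Of the 12 contractile filament genes 9 were deep enough to test. Of these 5 rose, 1 fell and 3 did not pass, and their median log2 ratio was 1.77 against 0.06 over all genes. The summed level of the list, Tpm1 included, differed less, at 11847, 10160, 7938 and 9033 CPM against 8805, 7478, 8058 and 6967, and was not higher at day 7. The median share of the list in a single spot was 1.09%, 0.961%, 0.662% and 0.657% against 0.827%, 0.733%, 0.777% and 0.687%, and thus lower in the marker-rich spots at days 7 and 14. Besides Acta2 and Myl9, caldesmon (Cald1, 2.28 ± 0.32), the essential light chain Myl6 (1.77 ± 0.28) and the tropomyosin Tpm2 (2.63 ± 0.51) rose. Tpm2 stood at 272, 525, 332 and 368 CPM in the marker-rich spots and at 31.2, 26.9, 247 and 18.7 in the marker-poor spots, so the groups came close at day 7. The day 7 section held spots with fast skeletal muscle RNA, described below. Whether these spots set its Tpm2 level was not tested. Without day 4 Tpm2 no longer passed (edgeR adjusted p = 0.297).

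Smoothelin (Smtn, 0.00 ± 0.24), synaptopodin 2 (Synpo2, 0.06 ± 0.28) and desmin (Des, -0.50 ± 0.33) did not pass, and their directions turned under several alternatives. Smtn stood at 126, 198, 205 and 184 CPM against 142, 117, 138 and 120. Tpm1, a tropomyosin that heart muscle makes in quantity, fell by 1.17 on the log2 scale (SE 0.41, edgeR adjusted p = 0.0457). Its levels were 6339, 2403, 3325 and 3528 CPM against 6480, 5893, 6066 and 5620, nearly equal at day 1. The fall of Tpm1 was lost without day 7 (edgeR adjusted p = 0.194) and without day 14 (0.202).

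**Figure D2:**
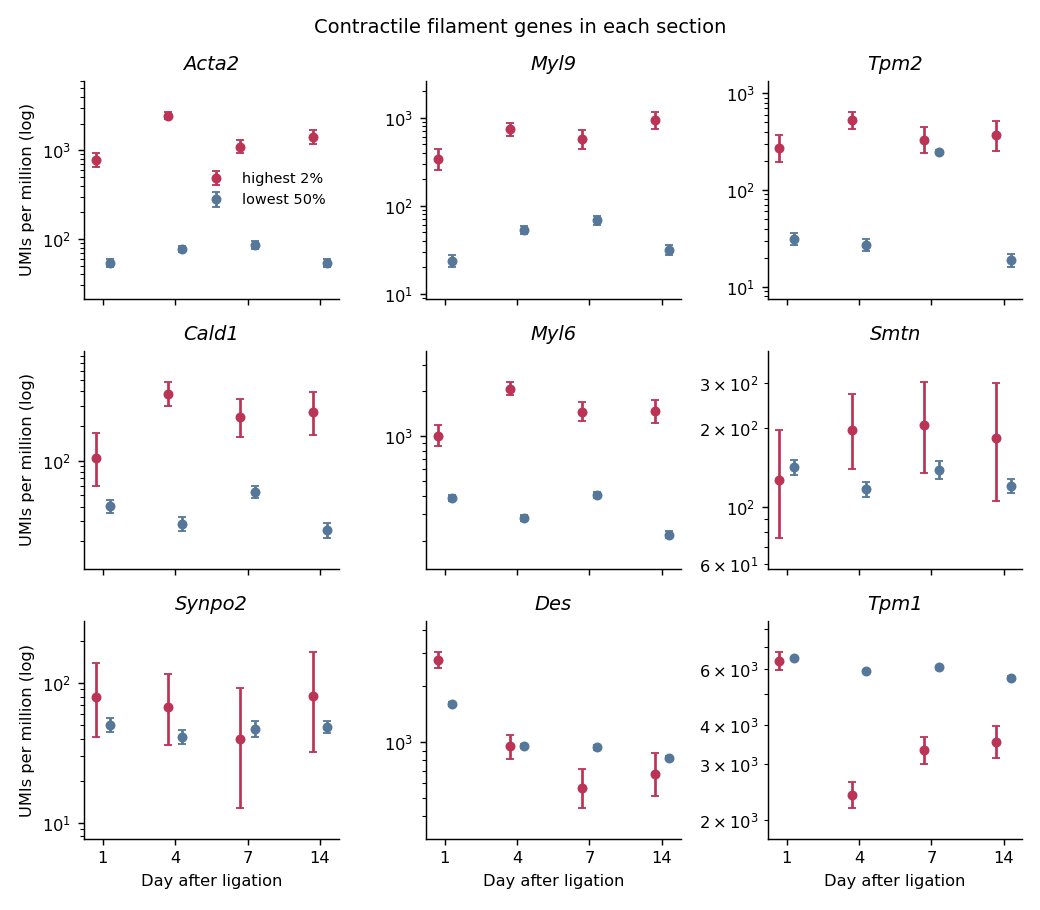
CPM (log axis) of the 9 tested contractile filament genes in the marker-rich (highest 2%) and marker-poor (lowest 50%) spots of each section, with exact 95% Poisson intervals that cover counting error only. Acta2, Myl9, Cald1 and Myl6 stand apart in every section, Tpm2 comes close at day 7, and Tpm1 is lower in the marker-rich spots from day 4 on.

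Genes that regulate myosin or tie the filaments to the membrane moved the same way. Of 20 on this list 14 were tested and 11 rose, with a median log2 ratio of 1.15. Filamin A (Flna), which crosslinks actin, stood at 571, 1020, 735 and 839 CPM against 104, 75.7, 123 and 54.6. Its log2 ratio was 2.73 ± 0.27 (edgeR adjusted p = 0.000168), and it passed in all 28 alternatives. The actin-severing destrin (Dstn, 1.28 ± 0.23) and the integrin subunit Itgb1 (0.74 ± 0.22) rose less.

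Receptors, channels and transcription factors of smooth muscle were mostly too sparse. Of 21 genes of vascular tone 5 were tested and none rose. The calcium pump Atp2a2 fell by 1.71 and the calcium channel subunit Cacna1c fell by 1.28 on the log2 scale, both genes that cardiomyocytes also use. Of 15 transcription and Notch genes 4 were tested and none passed, with Gata6, Mef2c and Klf4 at log2 ratios of -0.58, 0.16 and 0.55. Over all tested genes 16.1% were higher and 15% lower, so no rise among 5 or 4 genes sets these lists apart.

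The matrix of the marker-rich spots differed too. Of 14 tested elastic fibre and microfibril genes 12 rose, with a median log2 ratio of 1.89. Elastin (Eln), the elastic protein of artery walls, had a log2 ratio of 2.29 ± 0.33, fibulin-2 (Fbln2) of 1.75 ± 0.31 and fibulin-1 (Fbln1) of 1.17 ± 0.30, while the latent TGF-beta binding protein Ltbp4 did not pass (0.69 ± 0.26). Matrix Gla protein (Mgp), an inhibitor of vessel calcification, rose by 1.84 ± 0.31 and the proteoglycan biglycan (Bgn) by 2.21 ± 0.33 on the log2 scale, and 6 of the 7 genes on their list rose.

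Of 13 tested basement membrane genes 8 rose, with a median log2 ratio of 1.03. Col18a1, a collagen of vascular basement membranes, stood at 113, 707, 411 and 172 CPM against 15.2, 19.2, 34.8 and 12.7, without overlap. Its log2 ratio was 3.49 ± 0.33 (edgeR adjusted p = 0.000166), and it passed in all 27 alternatives that held it. Sparc (2.00 ± 0.39) and the collagen IV chain Col4a1 (1.05 ± 0.31) rose, and the laminin chain Lamb2 did not pass (0.25 ± 0.23).

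Activated fibroblast genes rose as a whole. All 13 tested of 16 on that list passed, with log2 ratios from 1.72 to 3.46 and a median of 2.63. Col1a1, a chain of the main scar collagen, stood at 684, 8474, 10869 and 3103 CPM against 168, 768, 1525 and 200, and its log2 ratio was 2.63 ± 0.37. Col1a2 (2.58 ± 0.39) and Col3a1 (2.14 ± 0.41) moved with it. The summed level of the list was 4957, 40976, 35324 and 18663 CPM against 1504, 3545, 5938 and 1367. The name smooth muscle therefore covers only part of what these spots held, and they are called marker-rich here.

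The 12 largest rises of single genes included many secreted scar proteins. Among them were, after Acta2, the matricellular protein Thbs1 (3.54 ± 0.44), Col18a1, Col12a1 (3.46 ± 0.38), Myl9, the metalloproteinase inhibitor Timp1 (3.33 ± 0.43), tenascin C (Tnc, 3.32 ± 0.36), Ltbp2 (3.18 ± 0.31), osteopontin (Spp1, 3.18 ± 0.53), the collagen crosslinker Lox (3.12 ± 0.37) and Cthrc1 (3.03 ± 0.30). Spp1 stood at 352, 3563, 569 and 91.9 CPM against 141, 86.7, 56.7 and 3.39, highest at day 4. The list of the synthetic state, in which smooth muscle cells lose contractile proteins and secrete matrix, holds Thbs1 and Spp1, and 9 of its 10 tested genes rose. Fibronectin (Fn1, 2.84 ± 0.44) and vimentin (Vim, 2.06 ± 0.34) are on it, and fibroblasts and macrophages make many of these genes.

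Resting fibroblast and macrophage genes rose in part, where 16.1% of all tested genes were higher. Of 14 resting and adventitial fibroblast genes 6 rose, among them lumican (Lum, 1.33 ± 0.26), while decorin (Dcn, 0.53 ± 0.30) and gelsolin (Gsn, -0.52 ± 0.34) did not pass. Of 7 macrophage genes 4 rose, among them the lysozyme Lyz2 (1.26 ± 0.37) and the complement genes C1qb (0.87 ± 0.26) and C1qc (1.05 ± 0.27). The direction of all 3 turned against spots of like cardiomyocyte content, at log2 ratios of -0.22, -0.24 and -0.09.

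Pericyte genes were split. Of 7 tested 1 rose and 3 fell, with a median fitted log2 ratio of -0.95. Over all tested genes 16.1% were higher and 15% lower. The summed level of the list, without TMM, was 578, 786, 743 and 931 CPM against 553, 528, 646 and 514, higher in each section, with counting intervals of the ratio that held no change at days 1 and 7. Rgs5, a pericyte marker, stood at 259, 281, 292 and 402 CPM against 198, 232, 273 and 193, and its fitted log2 ratio was -0.01 ± 0.24, or 0.45 when scaled to total UMIs. Pdgfrb, a receptor that fibroblasts also carry, rose by 1.42 ± 0.30, and the channel subunit Abcc9 fell by 1.31 on the log2 scale.

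Endothelial genes moved apart. Of 7 tested capillary genes 5 fell, among them the fatty acid transporter Cd36 (fell by 1.54 on the log2 scale) and Fabp4 (fell by 0.89). Gpihbp1, also on that list, did not pass. It passed in 7 of the 27 alternatives that held it, with log2 ratios from -1.40 to -0.27 over the fits. Of 8 general endothelial genes 2 rose, near the 16.1% of all tested genes that were higher. These were Pecam1 (1.15 ± 0.28) and Esam (0.97 ± 0.23), both named after their values were seen. Egfl7 (0.12 ± 0.25), Cdh5 (0.19 ± 0.26) and Kdr (-0.45 ± 0.27) did not pass. Of 3 venous genes 2 rose, the adhesion molecule Vcam1 (1.77 ± 0.35) and the ephrin receptor Ephb4 (0.86 ± 0.31). Ephb4 passed narrowly (edgeR adjusted p = 0.049997) and in only 5 of the 26 alternatives that held it. Vwf (0.71 ± 0.48) did not pass and was above the marker-poor level at days 4 and 14 only.

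Cardiomyocyte genes fell together. All 15 on the list passed, with log2 ratios from -1.86 to -1.35. Myoglobin (Mb) stood at 9070, 2050, 6927 and 7746 CPM against 13872, 11824, 13898 and 14228, without overlap and lowest at day 4, and its log2 ratio was -1.68 ± 0.51. The light chain Myl2 (-1.67 ± 0.51) and the heavy chain Myh6 (-1.56 ± 0.48) moved alike. The summed level was 58671, 13921, 42804 and 51301 CPM against 83309, 77290, 82900 and 90325, so cardiomyocyte RNA was present in the marker-rich spots of every section.

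The 8 largest falls of single genes rested on few UMIs. Cidea, a protein of lipid droplets, had 0 UMIs in the marker-rich spots and 631 in the marker-poor spots, and was at least 4.47-fold lower against a floor of 3 UMIs over the group. Dgat2, which makes triglycerides, stood at 33.2, 20.8, 7.90 and 91.9 CPM against 121, 243, 125 and 202 and fell by 2.87 on the log2 scale. Kcnj3, Ptpn3, Cpeb3, Thrsp and Rxrg had 1, 3, 4, 4 and 5 UMIs in the marker-rich spots. Mylpf, a light chain of fast skeletal muscle, had its UMIs almost only at day 7, at 63.2 against 445 CPM, and so did Tnnt3, at 103 against 490. Myh1 had UMIs at day 7 alone, so the falls of all 3 rested on 1 section. Only that section had kept spots with 10 or more UMIs of the fast skeletal muscle list. Without them 1713 of its 1830 kept spots remained, so these falls need not describe heart muscle.

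**Figure D3:**
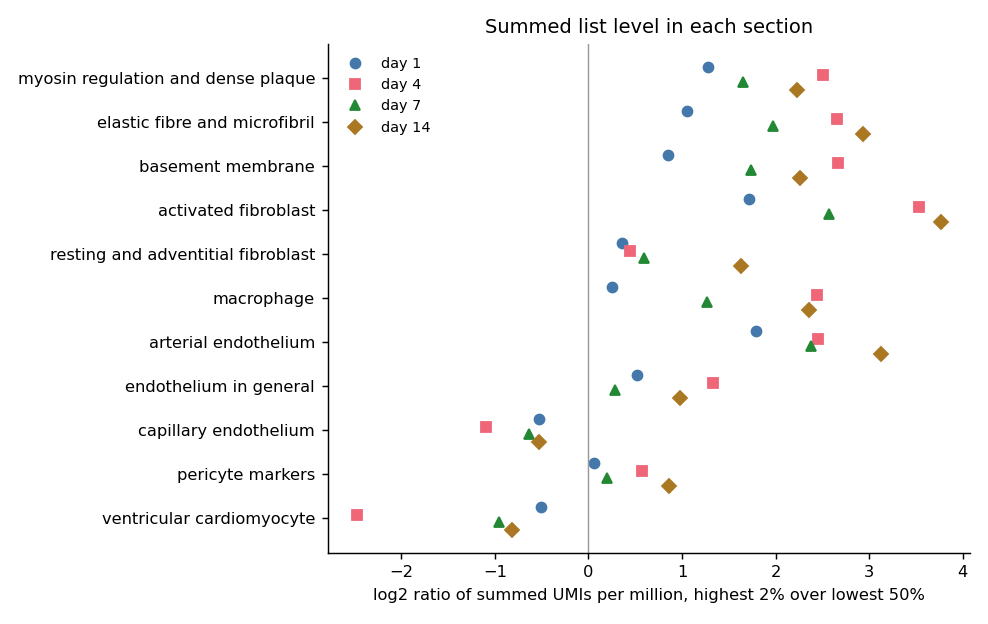
Log2 ratio of the summed CPM of 11 gene lists, marker-rich over marker-poor spots, in each section, without TMM. Activated fibroblast genes lie between 1.72 and 3.77 and ventricular cardiomyocyte genes between -2.47 and -0.51.

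Single marker-rich spots differed widely. The share of activated fibroblast UMIs ran from 0.0939% to 2.52% of a spot at day 1, from 0.222% to 8.44% at day 4, from 0.0210% to 9.95% at day 7 and from 0.0447% to 7.27% at day 14. It exceeded the 90th percentile of its section in 16 of 38, 11 of 33, 15 of 37 and 26 of 41 marker-rich spots. Ventricular cardiomyocyte genes made up a median of 5.25%, 0.563%, 1.03% and 2.03% of a marker-rich spot, against 9.07%, 7.89%, 8.83% and 9.06% of a marker-poor spot.

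A further comparison took spots with less scar RNA. These were the 942, 837, 915 and 1019 spots at or below their section's median share of Postn, Cthrc1, Col1a1, Col3a1, Fn1 and Timp1. The ranking was repeated within them. This left 19, 17, 18 and 20 marker-rich spots, with median depths of 6391, 9207, 5245.5 and 7832.5 UMIs against 6397, 9945, 5612.5 and 9125, so the gap in depth was small. Of 2501 genes tested 31 were higher (1.24%) and 15 lower (0.6%).

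Acta2 stood there at 174, 705, 989 and 247 CPM against 28.8, 53.5, 63.4 and 47.8, without overlap, with a log2 ratio of 3.21 ± 0.16. Myl9 stood at 141, 405, 427 and 203 against 17.0, 34.6, 38.8 and 25.7, with a log2 ratio of 3.22 ± 0.18. Flna (2.11 ± 0.20), Myl6 (0.97 ± 0.13), Bgn (0.94 ± 0.13) and Mgp (0.91 ± 0.09) also rose, as did the LIM protein genes Crip1 (1.25 ± 0.13) and Zyx (1.19 ± 0.25), which were named after their values were seen. Gsn rose by 0.48 ± 0.06, opposite to its direction over all spots.

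In these spots 3 of 7 tested contractile genes rose, at a median log2 ratio of 0.14 over the 7, and 1 of 15 cardiomyocyte genes fell. Nothing can be read from the activated fibroblast list here, since the spots were chosen for a low share of its genes and only 3 were deep enough to test, Col1a1 and Col3a1 of the choice itself among them. The common dispersion of this fit was 0.00318, against 0.0588 over all spots, and its SEs are narrow for that reason. With 4 sections, an exact permutation test of a single gene cannot go below a two-sided p of 0.125.

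The marker-rich spots were also set against spots of like cardiomyocyte share, the 10 nearest for each spot. Spots in the highest 10% by the 3 ranking genes were barred from the matching, so the matched spots were also kept from being high in these genes. Median depths were 3428.5, 5725, 2931 and 1334 UMIs against 6320.5, 6476.5, 4220 and 3201, so depth was not matched. Here 121 genes were higher (2.54%) and 209 lower (4.39%). Acta2 (2.75 ± 0.20), Myl9 (2.47 ± 0.39), Col18a1 (1.87 ± 0.19), Flna (1.48 ± 0.18), Mgp (1.18 ± 0.18), Cald1 (1.08 ± 0.20) and Myl6 (0.84 ± 0.17) were higher, as was the vascular adhesion molecule Mcam (1.86 ± 0.21), named after its value was seen. Of 9 contractile genes 4 were higher and 1 lower, at a median log2 ratio of 0.84, and of 13 activated fibroblast genes 8 were higher, at a median of 0.71. Of 15 cardiomyocyte genes 9 were still lower, so the matching was not complete.

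**Figure D4:**
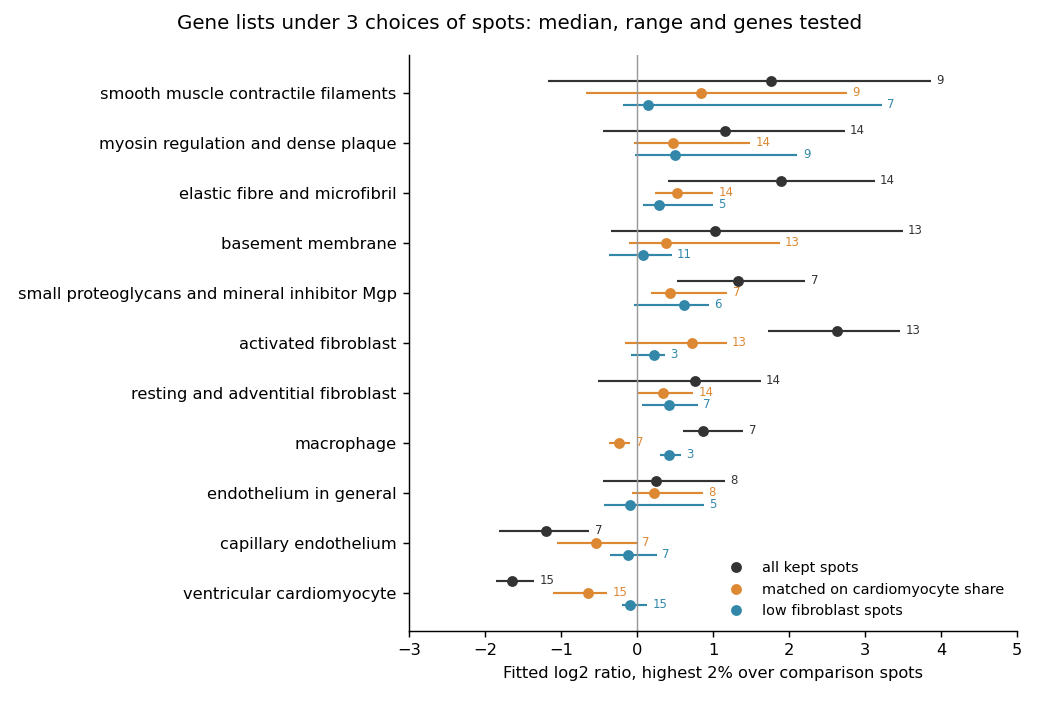
Fitted log2 ratio of 11 gene lists under 3 choices of spots. Points are medians over the genes tested, lines run from the lowest to the highest gene, and the small numbers are the genes tested. The contractile median is 1.77 over all kept spots, 0.84 against matched spots and 0.14 in low fibroblast spots, although the highest gene stays at 2.75 or above. The activated fibroblast median is 2.63 over all kept spots and 0.71 against matched spots, and its point in low fibroblast spots is set by the choice of those spots.

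Ranked by Myh11 alone, 428 genes were higher (8.98%) and 388 lower (8.14%), and Acta2 (2.99 ± 0.12) and Myl9 (2.77 ± 0.19) were among the higher. All 13 activated fibroblast genes still rose, at a median log2 ratio of 1.03. With only the 65 better supported spots, 155 genes were higher (3.25%) and 46 lower (0.965%). Acta2 (4.17 ± 0.36), Myl9 (3.70 ± 0.34) and 10 of 13 activated fibroblast genes rose there, and none of the 15 cardiomyocyte genes passed, at a median log2 ratio of -1.28.

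Sparser contractile genes were read in a fit of 11615 genes with at least 100 UMIs, of which 972 were higher (8.37%) and 1288 lower (11.1%). The genes of this paragraph and the next were named after their values were seen. The second smooth muscle actin, Actg2, had 0, 57, 8 and 4 UMIs in the marker-rich and 4, 17, 12 and 8 in the far larger marker-poor group, most of them at day 4, and a log2 ratio of 4.93 ± 0.47. Leiomodin (Lmod1), which nucleates actin filaments, had 5, 9, 5 and 5 UMIs against 3, 11, 10 and 10 and a log2 ratio of 4.26 ± 0.59. Myosin light chain kinase (Mylk), which switches smooth muscle myosin on, stood at 79.7, 198, 182 and 218 CPM against 10.95, 12.5, 16.8 and 10.4, with a log2 ratio of 2.92 ± 0.29. Of all 12 contractile genes 7 rose and 1 fell.

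Arterial endothelial genes all lay below 1000 UMIs. Of 9 tested at 100 UMIs 5 rose and none fell, with a median log2 ratio of 1.44. The arterial connexin Gja5 had 2, 11, 10 and 6 UMIs in the marker-rich and 19, 12, 11 and 11 in the marker-poor spots, a log2 ratio of 3.86 ± 0.54. Gja4 (1.94 ± 0.32), Cytl1 (2.65 ± 0.43), Stmn2 (2.13 ± 0.42) and Sema3g (1.44 ± 0.49) rose as well, and so did the Notch ligand Jag1 (2.09 ± 0.40). The summed level of the list was 286, 421, 482 and 517 CPM against 82.7, 77.1, 92.3 and 59.1, without overlap. Of the single spots, 14 of 38, 13 of 33, 16 of 37 and 13 of 41 exceeded the 90th percentile of their section for it. The list was sparse in single spots. At day 14 the median marker-rich spot held none of it, and 14 spots exceeded the section median. For venous genes 6, 10, 10 and 16 spots exceeded the 90th percentile, and for general endothelial genes 11, 13, 7 and 17. These counts are thus not particular to arterial genes.

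Against the spots richest in collagen, the marker-rich spots held more RNA of Acta2, Myl9 and cardiomyocyte genes and less of several scar matrix genes. The highest 2% of spots by the share of Col1a1 and Col3a1 were taken in each section, and the 18 spots in both groups were left out, which left 131 in each. Of 4763 genes 109 were higher (2.29%) and 49 lower (1.03%). The counts were fragile. Without the section block, with the highest 5% of spots or with spots of at least 2000 UMIs edgeR called none, although 245, 1033 and 794 genes had an unadjusted p under 0.05. DESeq2 called 105 higher and 35 lower. Without day 7 edgeR called 11 higher and 8 lower, without day 14 it called 39 and 16, and without day 1 it called 255 and 87. With the collagen-rich spots ranked by Postn and Col5a2 it called 2 and 5.

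Acta2 stood at 717, 2606, 1094 and 1428 CPM in the marker-rich and at 128, 915, 599 and 381 in the collagen-rich spots. It was higher in each section, although the day 4 collagen-rich level lay above the day 1 marker-rich level, and its log2 ratio was 1.70 ± 0.27 (edgeR adjusted p = 0.00174). Myl9 stood at 318, 754, 565 and 1008 against 47.0, 339, 339 and 86.7, with a log2 ratio of 1.80 ± 0.36 (edgeR adjusted p = 0.0107). Acta2 passed in 20 and Myl9 in 19 of 25 alternatives. The marker-rich spots were taken for a high share of Myh11, Tagln and Cnn1, contractile genes like these, which favours both rises. The rises of Acta2 and Myl9 are therefore no independent support.

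Of the 9 contractile genes 3 rose, the other being Tpm1 (1.38 ± 0.32), which heart muscle also makes. Tpm2 (1.02 ± 0.30), Des (1.27 ± 0.37), Synpo2 (0.80 ± 0.43), Smtn (0.58 ± 0.31), Cald1 (0.28 ± 0.28) and Myl6 (0.19 ± 0.22) did not pass. Cald1 and Myl6 turned direction when Myh11 alone ranked the spots, at log2 ratios of -0.45 and -0.30.

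Of 15 cardiomyocyte genes 14 were higher, at a median log2 ratio of 1.80. Taking spots for a high share of Col1a1 and Col3a1 favours spots with little cardiomyocyte RNA. These rises are therefore no separate finding about the marker-rich spots, which held less of these genes than the marker-poor spots. Myh6 stood at 5787, 2072, 5541 and 7002 CPM against 4192, 494, 791 and 1144, with a log2 ratio of 2.04 ± 0.32, and the light chain Myl3 had a log2 ratio of 2.07 ± 0.41. The 6 larger rises, Lrrc14b, Me3, Sgca, Rbpms2, Fndc5 and Mlf1, had 21 to 42 UMIs each in the marker-rich and 2 to 8 in the collagen-rich spots.

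Several scar matrix genes were lower. The collagen-rich spots were taken for a high share of Col1a1 and Col3a1, which favours lower scar genes in the marker-rich spots. The falls are therefore no separate finding about the marker-rich spots. Of 11 tested activated fibroblast genes 6 fell and none rose. Sfrp2, a modulator of Wnt signals, fell by 1.77 on the log2 scale, and Postn and Cthrc1 fell by 1.49 and 1.53. Timp1 (-0.28 ± 0.28), Tnc (-0.03 ± 0.38) and Ltbp2 (-0.19 ± 0.27) did not pass. The thrombospondin Thbs2 fell by 1.70, the growth factor Ptn by 1.77 and the carboxypeptidase-like Cpxm1 fell by 2.15. Haptoglobin (Hp) fell by 2.06, but its log2 ratio was 0.38 when Postn and Col5a2 ranked the collagen-rich spots. The immunoglobulin gene Igha fell by 2.52 on 12 against 66 UMIs. Of 14 elastic fibre genes 5 fell, and Eln did not pass (0.13 ± 0.31). Of 7 macrophage genes 2 fell, Lyz2 (-1.03 ± 0.24) and C1qb (-1.03 ± 0.26).

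**Figure D5:**
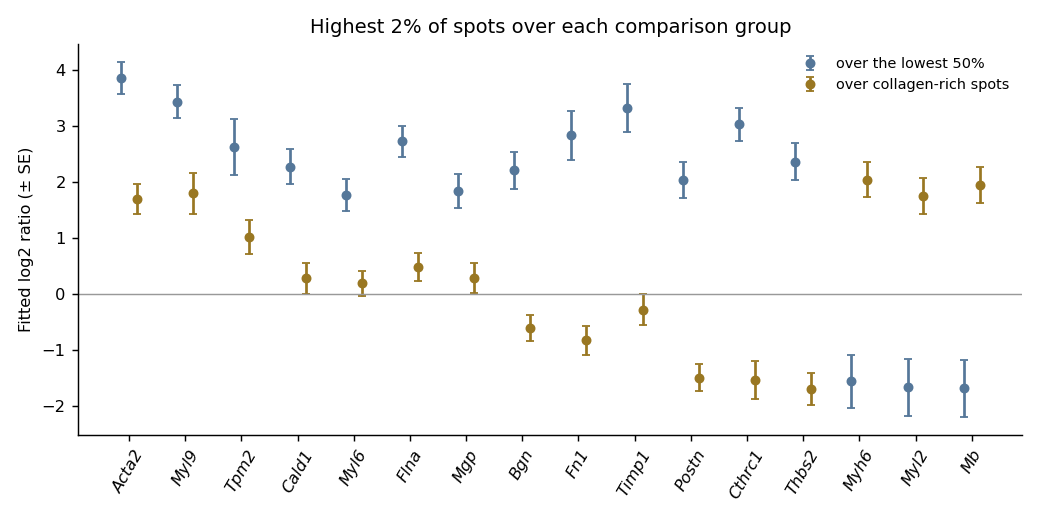
Fitted log2 ratios (± SE) of 16 genes, marker-rich over marker-poor spots and marker-rich over collagen-rich spots. The comparisons share their marker-rich spots apart from the 18 left out. These spots were taken for high Myh11, Tagln and Cnn1, which favours higher values of contractile genes such as Acta2 and Myl9 in both. The collagen-rich spots were taken for high Col1a1 and Col3a1, which favours lower values of scar genes and higher values of cardiomyocyte genes in the second comparison. Acta2 and Myl9 lie above 0 in both, at 3.87 and 3.44 and at 1.70 and 1.80, while Postn and Cthrc1 lie above 0 in the first and below it in the second, at -1.49 and -1.53.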

How the data were processed

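The authors deposited UMI counts per gene and spot, made with Space Ranger 1.3.0 on mm10 with images aligned by hand; the submitters' processing notes also list Seurat 4.1.1. The study removed edge spots by hand, which was not repeated here since spot positions were not used. Spots above 1% hemoglobin or under 500 UMIs were left out. Counts were summed over the spots of each section and group, without Myh11, Tagln and Cnn1, and fitted with edgeR 4.0.16 (robust quasi-likelihood, TMM, section as block, genes of at least 1000 UMIs, Benjamini-Hochberg over all genes tested). The SE of a fitted ratio is its absolute value divided by the square root of the quasi-likelihood F statistic. DESeq2 1.42.0 was an alternative. CPM values (UMIs per 1000000) carry exact Poisson intervals, which cover counting error only. Of 3178 barcodes, 1332 occur in all 4 sections, as slides share their barcode set, and 3 of the 146 barcodes of marker-rich spots occur in more than 1.

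The members and lists were chosen with earlier results of these data known. Ckm was dropped from the fast skeletal muscle list after the data were examined. Genes were named by rule: in the first comparison the 12 largest rises and 8 largest falls, in the second the 8 and 6 largest, each called and moved the same way in 4 sections; every tested contractile gene; and the 3 tested genes with most UMIs of each other list. Of the genes this rule takes, 1 is not reported here. Of 25 lists, lymphatic, mesothelial and Schwann cell genes had no gene at 1000 UMIs, and the remaining lists not described had 1 or 2 tested genes or were immediate early genes (2 of 6 rose). On simulated counts of the first comparison (4765 genes) 32% of changes of log2 1 and 76% of log2 2 were recovered with 2 false calls, and on those of the second (4763 genes) 23% and 70% with 3. The simulation drew each gene independently with a common dispersion. Its false calls thus do not cover genes that vary together or the choice of spots.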

Additional observations from a re-analysis of the deposited data

Results flagged for a closer look

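For 3 of the named genes the log2 ratio of CPM, marker-rich over marker-poor spots, had opposite signs in different sections, both beyond counting error. Other named genes changed sign within counting error. The difference between days was not tested. Desmin (Des) had a ratio of 0.78 at day 1 and -0.72 at day 7. Gelsolin (Gsn) had a ratio of 0.94 at day 14 and -0.89 at day 4. The natriuretic peptide gene Nppa had a ratio of 1.16 at day 1 and -0.72 at day 7. Each day is 1 mouse and 1 section.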

How the results depend on the processing

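Against the marker-poor spots, 769 genes were higher and 715 lower. The counts moved by over 1.5 times with total UMIs (1483 and 360), ranked by Myh11 alone (428 and 388), ranked by Cnn1 alone (142 and 6), ranked after thinning to 500 UMIs (373 and 180), against spots matched on cardiomyocyte share (121 and 209), in low fibroblast spots (31 and 15) and with the supported spots (155 and 46), and for lower genes alone with genes of 100 or more UMIs (1288), of 10 or more UMIs (1301) and with spots of 2000 or more UMIs (421). Leaving out 1 section gave 324 to 752 higher and 200 to 842 lower. Without the replicate block, that is without the section, the counts were 816 and 746.

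Against the collagen-rich spots, 109 were higher and 49 lower. The counts moved with genes of 100 or more UMIs (211 and 86), of 10 or more (192 higher), with the top 1% (90 lower), ranked by Myh11 alone (377 and 238), by Cnn1 alone (26 lower), with no hemoglobin limit (183 and 76), after thinning (279 and 132) and with collagen-rich spots ranked by Postn and Col5a2 (2 and 5). They were 0 and 0 without the replicate block, with the top 5% and with spots of 2000 or more UMIs. Leaving out 1 section gave 11 to 255 higher and 8 to 87 lower.

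Leaving out spots with skeletal muscle genes, Ckm included, removed most spots, since heart muscle makes Ckm: 8 genes were higher and 0 lower of 1306 in the first comparison, where 288 had an unadjusted p under 0.05, and 9 and 13 of 1304 in the second. The form without Ckm (755 and 700, 99 and 48), the supported spots, all spots without the 3 genes (760 and 703) and ties in reverse order (747 and 701) were chosen after seeing the data.

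Of 2121 values of 78 named genes in the first comparison 90 changed sign, and of 558 values of 23 genes in the second 11 did. In the first, log2 ratios turned in low fibroblast spots (Rxrg 0.12, Smtn -0.19, Synpo2 -0.032, Des 0.14, Itgb1 -0.029, Rgs5 0.24, Col4a1 -0.019, Egfl7 -0.43, Cdh5 -0.017, Col1a1 -0.084, Gsn 0.48, Nppa 0.28, Dusp1 0.065), with DESeq2 (Smtn -0.050, Myh1 4.03), with RLE factors (Smtn -0.050), with genes of 100 or more UMIs (Smtn -0.31, Synpo2 -0.25, Mef2c -0.15, Lamb2 -0.059, Egfl7 -0.19, Cdh5 -0.12, Jun -0.22). In the first, log2 ratios turned with genes of 10 or more UMIs (Smtn -0.37, Synpo2 -0.31, Mef2c -0.21, Lamb2 -0.12, Egfl7 -0.26, Cdh5 -0.19, Jun -0.28), with the top 5% of spots (Smtn -0.34, Synpo2 -0.30, Cdh5 -0.18, Nppa 0.17), ranked by Tagln alone (Smtn -0.22, Synpo2 -0.091, Mef2c -0.15, Cdh5 -0.13), ranked by Cnn1 alone (Smtn -0.19, Mef2c -0.12, Nppa 0.18, Jun -0.58). In the first, log2 ratios turned with spots of 1000 or more UMIs (Smtn -0.047, Synpo2 -0.018, Jun -0.12), with spots of 2000 or more UMIs (Smtn -0.054, Jun -0.18), ranked after thinning to 500 UMIs (Smtn -0.23, Synpo2 -0.75, Des 0.024, Gata6 0.13, Vwf -0.39, Nppa 0.59, Cfd 0.58), without skeletal muscle spots (Smtn -0.0042). In the first, log2 ratios turned with total UMIs (Rgs5 0.45, Kdr 0.0062, Nppa 0.23), ranked by Myh11 alone (Rgs5 0.23, Gsn 0.13, Myh1 0.50), against all other 98% of spots (Rgs5 0.022), against spots matched on cardiomyocyte share (Rgs5 0.28, Egfl7 -0.033, Gsn 0.46, Lyz2 -0.22, C1qb -0.24, C1qc -0.093, Jun -0.26). In the first, log2 ratios turned without skeletal muscle spots by the list with Ckm (Fbln1 -0.051, Dcn -0.091, Egfl7 -0.14, Lyz2 -0.60, C1qb -1.19, C1qc -0.73), with no hemoglobin limit (Cfd 0.36), with a hemoglobin limit of 0.5% (Jun -0.29), with the supported spots (Jun -0.30). Leaving out 1 section turned these, with their ranges: Smtn -0.090 to 0.068, Synpo2 -0.15 to 0.21, Rgs5 -0.14 to 0.12, Mef2c -0.073 to 0.32, Vwf -0.034 to 1.12, Egfl7 -0.096 to 0.25, Cdh5 -0.082 to 0.30, Nppa -0.70 to 0.066, Jun -0.39 to 0.35. In the second, they turned with collagen-rich spots ranked by Postn and Col5a2 (Hp 0.38, Des -0.32), with the top 5% of spots (Myl6 -0.089), ranked by Myh11 alone (Myl6 -0.30, Cald1 -0.45), ranked by Cnn1 alone (Myl6 -0.37, Cald1 -0.25). In the second, they turned with spots of 2000 or more UMIs (Myl6 -0.027), ranked after thinning to 500 UMIs (Myl6 -0.33, Cald1 -0.12). Leaving out 1 section turned Cald1 -0.011 to 0.43. For every count or sign that changed, the cause was not tested.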

Other observations

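The summed level of neutrophil genes in the marker-rich spots was high at day 14, in a minority of spots. It was 106, 72.8, 71.1 and 1574 CPM (UMIs per 1000000) at days 1, 4, 7 and 14, against 115, 9.72, 18.3 and 12.9 in the marker-poor spots, and at day 14 the median spot held none, 10 of 41 spots exceeded the median of the section, and in 1 spot these genes made up 5.15% of the UMIs. S100a9, the 1 gene of the list tested, did not pass (log2 ratio 2.88 ± 1.38, edgeR adjusted p = 0.165).

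The olfactory receptor genes Olfr558 and Olfr78, named after their values were seen, were higher in the marker-rich spots in the fit of genes with at least 100 UMIs. Olfr558 had 4, 13, 4 and 3 UMIs at days 1, 4, 7 and 14 against 7, 15, 17 and 20 in the marker-poor spots (log2 ratio 3.40 ± 0.57), and Olfr78 had 1, 3, 3 and 5 against 6, 14, 12 and 6 (3.08 ± 0.71).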
